A study of Mus musculus with 6 samples.

Results

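The genes described here make cholesterol, control that synthesis, or move cholesterol and lipoproteins between cells. They were given by symbol as 31 mouse genes: 18 enzymes of the synthesis route, 7 regulators, and 6 genes of transport and removal. Of these, 30 were matched to an identifier in the count tables. All 30 passed the filter on low counts and were among the 16432 genes tested, out of 37620 identifiers counted. Hmgcs1, which makes the precursor that is reduced to mevalonate, was not matched, and its counts were not analysed here. The samples were whole hippocampi of C57BL/6 mice aged 13 weeks: 3 wildtype mice and 3 mice labelled as miR-17-92 knockout, each from its own litter, with no treatment named. Whether the cluster was deleted in all cells or only in some, and what drove the deletion, is not given in the sources used here. RNA was sequenced as 1 library per mouse. The study's title places the work on adult hippocampal neurogenesis, anxiety and depression.

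The brain makes nearly all of its own cholesterol, because lipoproteins of the blood do not cross the blood-brain barrier. Synthesis runs from acetyl-CoA through mevalonate and squalene to a chain of sterols. Its genes are switched on by SREBP-2, the product of Srebf2, which is held in the endoplasmic reticulum by the INSIG proteins while sterol is plentiful and carried to the Golgi by SCAP when sterol is short. SREBP-1, the product of Srebf1, drives mainly fatty acid synthesis genes. Liver X receptors, encoded by Nr1h2 and Nr1h3, sense oxidised sterols and switch on the export pumps Abca1 and Abcg1 as well as Srebf1. In the brain, astrocytes load cholesterol onto apolipoprotein E, neurons take the particles up through receptors that include LRP1, and neurons remove excess cholesterol by hydroxylating it with the enzyme encoded by Cyp46a1.

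The miR-17-92 cluster encodes 6 microRNAs with 4 seed sequences, the stretch (bases 2 to 8) that pairs with target messages. The mature mouse sequences are shown because the knockout label names them; RefSeq places them on chromosome 14 of GRCm38.p6, plus strand, from chr14:115043684-115043706 for the first to chr14:115044476-115044496 for the last. Capitals mark the seed. miR-17 and miR-20a share a seed, as do miR-19a and miR-19b.
miR-17-5p: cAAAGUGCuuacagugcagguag
miR-20a-5p: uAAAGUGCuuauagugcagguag
miR-18a-5p: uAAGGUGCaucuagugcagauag
miR-19a-3p: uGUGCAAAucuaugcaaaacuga
miR-19b-3p: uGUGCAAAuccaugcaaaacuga
miR-92a-3p: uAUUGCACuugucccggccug

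Matches to the 4 seeds were looked for in the longest annotated 3′ UTR of each gene (GENCODE, GRCm38). The match is the 7 bases complementary to the seed, read on the strand of the gene: GCACTTT for miR-17 and miR-20a, GCACCTT for miR-18a, TTTGCAC for miR-19 and GTGCAAT for miR-92a. Of the 30 members, 11 held at least 1 match, against 35.03% of the 14542 tested genes with an annotated 3′ UTR. The match was extended by an A opposite the first base of the microRNA in 4 members, Abca1, Srebf1, Abcg1 and Sc5d, against 13.76% of genes. The following stretches of 26 bases show matches (capitals) in the regulators whose values are described below, and in Sc5d and Abca1, which hold extended ones.
Srebf1, miR-18a, chr11:60199756-60199781, minus strand: ttgctctgtagGCACCTTagtggctt
Nr1h2, miR-18a, chr7:44549719-44549744, minus strand: taccacaccatGCACCTTgagtggag
Sc5d, miR-18a, chr9:42254784-42254809, minus strand: cctatacagagGCACCTTactctctg
Srebf2, miR-19, chr15:82204333-82204358, plus strand: ggaactaggtcTTTGCACcagagagc
Insig1, miR-92a, chr5:28077753-28077778, plus strand: ttcaacttcaaGTGCAATgtgtatga
Abca1, miR-17 and miR-20a, chr4:53030998-53031023, minus strand: cctcattccaaGCACTTTatgctgtc

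By microRNA, miR-18a matches lay in Srebf1, Nr1h2, Sc5d, Mvk and Stard4, against 10.2% of genes. Those of miR-19 lay in Srebf2, Abca1, Abcg1, Sc5d and Stard4 (13.8% of genes), those of miR-92a in Insig1, Abcg1, Nsdhl and Sc5d (7.98% of genes), and those of miR-17 and miR-20a in Abca1, Lss and Stard4 (14.9% of genes). A match is a description of letters. Of the 11 members with a match, Stard4 alone had a positive log2 fold of knockout over wildtype (0.02), 10 were negative and the median was -0.12. The 19 members without a match had 11 positive and 8 negative folds and a median of 0.0049. Over all tested genes, the 5094 with a match had 2761 positive and 2333 negative folds and a median of 0.011, and the 9448 without had 4562 positive and 4886 negative folds and a median of -0.0057. Of the members with a match, Srebf1, Srebf2, Nr1h2 and Mvk lie in the highest of 5 groups of genes by GC content. Abca1, Abcg1, Stard4, Nsdhl, Sc5d, Lss and Insig1 lie in lower groups. Folds over all genes were lower at high GC content. The cause of the split by match was not tested. With GC content and length in the fit, the members with a match had a median of -0.076, with 0 positive and 11 negative folds. Several of these folds were smaller than their SE: Abcg1 (-0.0038, SE 0.08), Stard4 (-0.013, SE 0.20), Abca1 (-0.020, SE 0.09), Mvk, Nr1h2 and Srebf2. Only Srebf1, Insig1 and Sc5d had an unadjusted edgeR p under 0.05 in that fit. The members without a match had a median of 0.013, with 12 positive and 7 negative folds. Over all tested genes in that fit, those with a match had 2701 positive and 2393 negative folds, and those without 4846 and 4602.

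The gene reads per library ran from 26439693 to 57246827, with wildtype 1, wildtype 2 and knockout 3 the deeper libraries. No library held a read on any of the cluster's 6 hairpins. Their host transcript Mir17hg had 43, 47 and 36 reads in the wildtype mice and 30, 35 and 37 in the knockout mice, or 1.07, 1.07 and 1.13 counts per 1000000 reads of the library (CPM) against 0.93, 1.33 and 0.65. These reads can come from outside the deleted part, so the counts do not check the genotype labels. Over all genes, edgeR's quasi-likelihood test called 0 of 16432 genes at an adjusted p under 0.05 (0%), and DESeq2 called 165 of the 12939 genes to which it gave an adjusted p (1.28%). At an unadjusted edgeR p under 0.05, 829 genes were higher in the knockout mice (5.05%) and 917 were lower (5.58%).

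No member was called by edgeR at the adjusted threshold. Adjusted p-values below are those of edgeR over all genes tested, unless DESeq2 is named. At an unadjusted p under 0.05, 0 of 30 members were higher, against 5.05% of all genes, and 4 were lower, against 5.58%: the regulators Srebf1, Srebf2 and Nr1h2 and the receptor Lrp1. The CPM values of the 3 knockout mice lay wholly below those of the 3 wildtype mice in 5 members, these 4 and Scap, against 8.34% of all genes, and wholly above in 0 members, against 8.29%. DESeq2 called 2 members, Srebf1 (adjusted p = 0.0409) and Lrp1 (adjusted p = 0.0186), both lower. Once the fit also took GC content and transcript length into account, Srebf1 alone of the 4 remained below the unadjusted threshold. Log2 folds of knockout over wildtype were positive in 12 members and negative in 18, with a median of -0.053, beside 3.9e-05 over all genes tested. In whole tissue, fewer cells of a type and less RNA per cell cannot be told apart, and that holds for each value below.

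**Figure D1:**
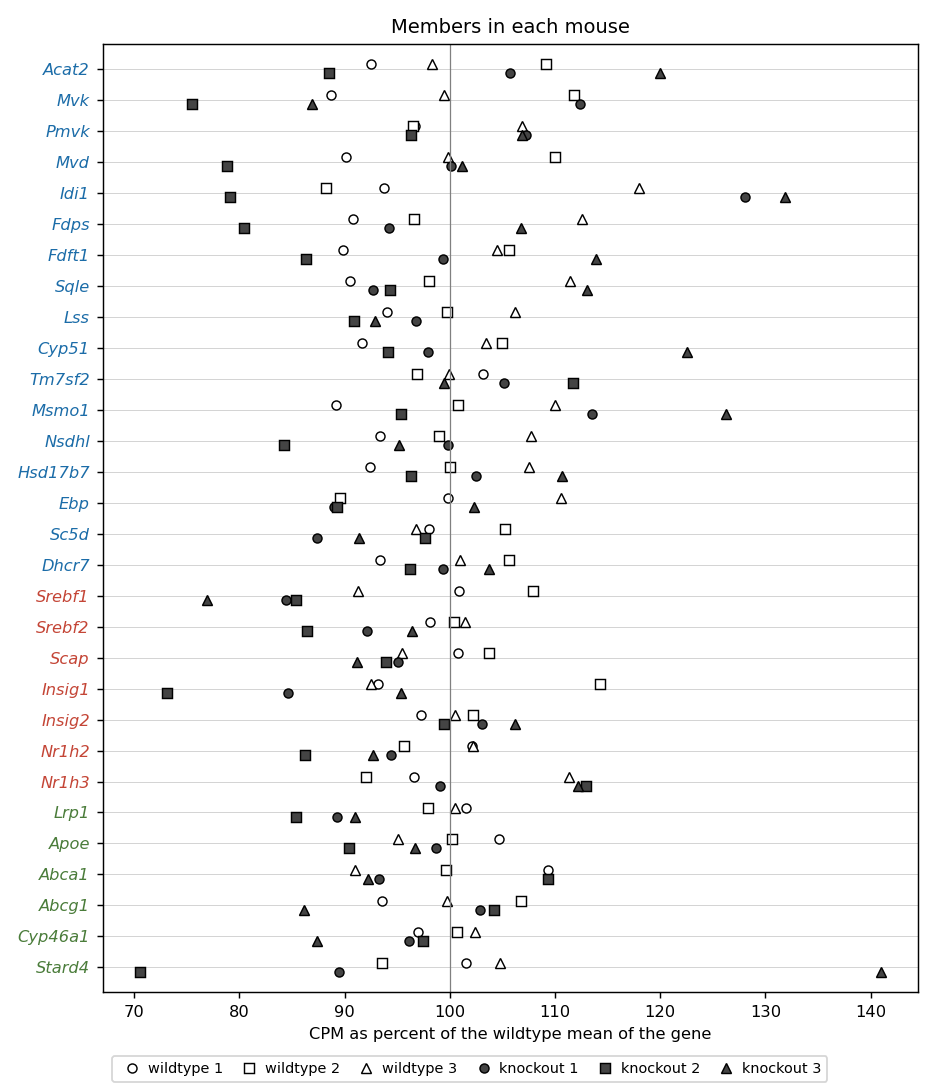
CPM of each tested member in each mouse, as a percent of the wildtype mean of the gene; open symbols are wildtype mice, filled symbols knockout mice, and gene names are blue for synthesis, red for regulators and green for transport. In the rows of Srebf1, Srebf2, Scap, Nr1h2 and Lrp1 the 3 filled symbols lie left of all open ones.

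The 17 synthesis enzymes showed no shared difference between the genotypes. Log2 folds were positive in 9 and negative in 8, with a median of 0.0046 and a range from -0.13 for Mvk to 0.20 for Idi1. None had an unadjusted p under 0.05, and in none were the genotypes separate. The early part of the route, up to the isoprenoid units, comprised Acat2, Mvk, Pmvk, Mvd and Idi1. Mevalonate kinase, Mvk, had 13.6, 17.1 and 15.3 CPM in the wildtype mice and 17.2, 11.6 and 13.3 CPM in the knockout mice. The highest and the lowest of these values both came from knockout mice. Idi1, which interconverts the isoprenoid units, was the lowest member, at 1.84, 1.74 and 2.32 CPM against 2.52, 1.56 and 2.59 CPM.

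Fdps, Fdft1 and Sqle carry the chain from isoprenoid units to squalene and its epoxide, and Lss closes the epoxide into the first sterol. Sqle, a rate-controlling enzyme, had 59.6, 64.5 and 73.3 CPM in wildtype mice and 61.0, 62.1 and 74.4 CPM in knockout mice, a log2 fold of 0.0049 (SE 0.09). The values of the 2 genotypes were interleaved. Lss had 46.5, 49.3 and 52.6 CPM against 47.9, 45.0 and 46.0 CPM, with a log2 fold of -0.10 (SE 0.06, adjusted p = 0.593).

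The last enzymes trim and reshape the sterol ring to cholesterol. Msmo1, which removes methyl groups, had the largest positive fold among synthesis members above 10 CPM: 72.5, 81.9 and 89.4 CPM in wildtype mice and 92.3, 77.5 and 103 CPM in knockout mice, giving a fold of 0.16 on the log2 scale (SE 0.10, adjusted p = 0.617). Knockout 2 lay inside the wildtype range and the other knockout mice above it; without knockout 2 the log2 fold was 0.27 (adjusted p = 0.779). Sc5d, which places a ring double bond, had the smallest p of the synthesis members, above 0.05 before adjustment. Its values were 46.7, 50.1 and 46.1 CPM against 41.6, 46.5 and 43.5 CPM, with a log2 fold of -0.12 (SE 0.06, adjusted p = 0.514). Knockout 2 overlapped the wildtype mice and the other knockout mice lay below them. Dhcr7, which catalyses the final reduction, had 35.8, 40.4 and 38.7 CPM against 38.0, 36.8 and 39.7 CPM. The remaining enzymes, Acat2, Pmvk, Mvd, Fdps, Fdft1, Cyp51, Tm7sf2, Nsdhl, Hsd17b7 and Ebp, had log2 folds between -0.10 and 0.07.

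The synthesis enzymes varied from mouse to mouse within each genotype. The level of the list in a mouse, taken as the mean over its genes of log2 CPM less the gene's mean over the 6 libraries, was -0.09, 0.02 and 0.08 in the wildtype mice and 0.03, -0.15 and 0.10 in the knockout mice. The genotype means differed by -0.010, less than the SD within the wildtype (0.089) or the knockout mice (0.127). Knockout 2 was the lowest of the knockout mice in 13 of 17 enzymes, against 32.1% of all genes tested. It was the lowest of all mice in 9 of 17 enzymes, against 18.2% of all genes. The same held in 3 of 7 regulators and 3 of 6 transport genes. Wildtype 1 was the lowest of the wildtype mice in 12 of 17 enzymes, against 32.7% of all genes. Knockout 3 was the highest of all mice in 7 of 17 enzymes, against 17.6% of all genes. Among genes with a mean of 10 CPM or more, the highest mouse exceeded the lowest by a median factor of 1.26 in the 16 synthesis enzymes that reached this level, beside 1.16 over the 9887 genes that did. Taken over the deeper libraries alone, the genotypes differed by 0.14, and over the shallower ones alone by -0.14. The deeper set holds knockout 3 as its only knockout mouse, and the shallower set wildtype 3 as its only wildtype mouse. With the set of deeper or shallower libraries as a covariate, the median log2 fold of the list was 0.0097.

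**Figure D2:**
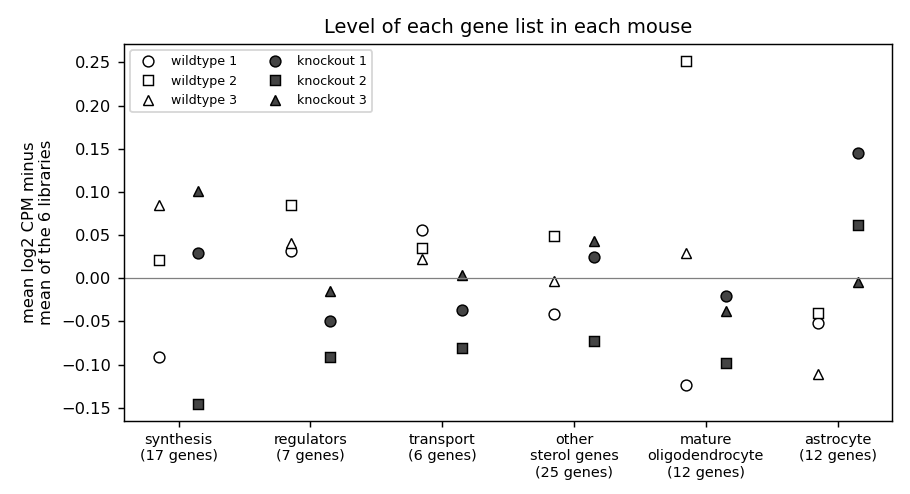
Level of each gene list in each mouse, as the mean over genes of log2 CPM less the mean of the 6 libraries; open symbols are wildtype mice and filled symbols knockout mice. The synthesis level spans -0.15 to 0.10 among knockout mice alone, while the knockout mice lie below the wildtype mice in the regulators (-0.09 to -0.02 against 0.03 to 0.08) and in transport (-0.08 to 0.0040 against 0.02 to 0.06). The levels carry no offsets for GC content and length. With such offsets in the fit, the median log2 fold went from -0.12 to -0.033 in the regulators and from -0.053 to -0.016 in transport.

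The promoters of the members are shown here because SREBP proteins act there, usually beside the factors NF-Y and Sp1. RefSeq promoters (GRCm38.p6, from 250 bases before to 50 after each start) were found for 26 of the 31 members, with 37 start sites. Letters searched on both strands were TCACNCCAC, the core of a sterol response element, its first 8 letters TCACNCCA, CCAAT, the box bound by NF-Y, and GGGCGG bound by Sp1; TCACNCCA overlaps the longer motif by its construction. CCAAT was found in 19 of 26 members, among them 14 of the 15 synthesis genes with a promoter, beside 42.3% of the 11911 tested genes and 37.1% of their 15237 promoters. GGGCGG was found in 22 of 26 members, with 14 of 15 synthesis genes, beside 66.0% of genes. TCACNCCAC was found in Hmgcs1 only among the members, beside 1.39% of genes, and TCACNCCA in Apoe, Hmgcs1, Msmo1 and Srebf2, beside 4.63% of genes. Hmgcs1 is in the member counts of all these motifs, but it was not among the tested genes that give the shares. Stretches of 100 bases follow, with matches on either strand in capitals, for a pair of regulators whose values separated the genotypes, for Insig1 and for the synthesis genes with the largest positive folds. Each is the stretch upstream of a start site that holds the most letters in matches, over all start sites of the gene. The stretches are thus not typical of the promoters. Srebf1 has 3 start sites.
Srebf2, chr15:82147039-82147138, plus strand: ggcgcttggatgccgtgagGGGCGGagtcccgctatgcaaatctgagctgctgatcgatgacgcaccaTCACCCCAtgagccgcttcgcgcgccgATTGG
Srebf1, chr11:60210472-60210571, minus strand: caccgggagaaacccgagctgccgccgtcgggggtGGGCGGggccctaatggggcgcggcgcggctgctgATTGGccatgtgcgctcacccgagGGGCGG
Insig1, chr5:28071162-28071261, plus strand: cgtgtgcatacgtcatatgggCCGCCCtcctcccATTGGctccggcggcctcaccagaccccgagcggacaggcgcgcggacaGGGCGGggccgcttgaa
Msmo1, chr8:64733629-64733728, minus strand: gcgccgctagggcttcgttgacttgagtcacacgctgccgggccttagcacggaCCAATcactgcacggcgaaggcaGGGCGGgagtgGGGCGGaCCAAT
Idi1, chr13:8885497-8885596, plus strand: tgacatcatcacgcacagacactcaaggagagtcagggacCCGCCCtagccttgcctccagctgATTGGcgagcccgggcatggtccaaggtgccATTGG

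In Srebf2, TCACCCCA lies at position -162 from the start site, with a CCAAT box on the opposite strand at -135. In Msmo1 the 8 letters lie at -177, outside the stretch shown. The absence of a match says only that these letters are not in this window.

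Of the 4 members that were lower at the unadjusted threshold, 3 were regulators. Among the 7 regulators, 2 had positive and 5 negative log2 folds, with a median of -0.12, or -0.033 when GC content and length were in the fit. At an unadjusted edgeR p under 0.05, 3 of 7 were lower, against 5.58% of all genes, and 4 of 7 had knockout values wholly below the wildtype values, against 8.34%. No regulator was higher by either measure. Srebf1 had the largest negative fold of all members: 52.0, 55.6 and 47.0 CPM in the wildtype mice and 43.5, 44.0 and 39.7 CPM in the knockout mice. Every knockout mouse lay below every wildtype mouse. The knockout level was 0.82 of the wildtype level (log2 fold -0.29, SE 0.07, adjusted p = 0.286), and with each library left out in turn the log2 fold stayed between -0.35 and -0.23. It was -0.44 among the deeper libraries alone and -0.10 among the shallower ones alone. Knockout 3 is the only knockout mouse in the former and wildtype 3 the only wildtype mouse in the latter.

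Srebf2, the main activator of the synthesis genes, had 198, 203 and 205 CPM in the wildtype mice and 186, 175 and 195 CPM in the knockout mice. The genotypes did not overlap. The knockout level was 0.917 of wildtype (log2 fold -0.12, SE 0.05, adjusted p = 0.418), and the log2 fold was -0.05 with GC content and length in the fit. Over the left-out libraries the log2 fold ran from -0.16 to -0.08 and the unadjusted edgeR p from 0.0098 to 0.116. Scap, the escort of the SREBPs, had 81.8, 84.2 and 77.5 CPM against 77.2, 76.3 and 74.1 CPM, giving a fold of -0.10 on the log2 scale (SE 0.05, adjusted p = 0.506). Its groups were separate only narrowly, at 77.5 against 77.2 CPM, and its log2 fold was -0.01 with GC content and length in the fit.

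The INSIG genes had folds of opposite sign. Insig1, itself a target of the SREBPs, had 33.7, 41.3 and 33.5 CPM in wildtype mice and 30.6, 26.4 and 34.5 CPM in knockout mice. Knockout 3 lay inside the wildtype range, and the highest value was that of wildtype 2. The log2 fold was -0.24 (SE 0.11, adjusted p = 0.493), with a range from -0.34 to -0.13 over the left-out libraries. Insig2 had 54.7, 57.4 and 56.5 CPM against 57.9, 55.9 and 59.7 CPM, a log2 fold of 0.04 (SE 0.05). The difference between the INSIG genes was not tested.

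Of the liver X receptors, Nr1h2 was the more abundant. It had 39.9, 37.4 and 39.9 CPM in wildtype mice and 36.9, 33.7 and 36.2 CPM in knockout mice, without overlap (log2 fold -0.13, SE 0.06, adjusted p = 0.454). With GC content and length in the fit it was -0.03. Nr1h3 had 3.22, 3.06 and 3.70 CPM against 3.30, 3.76 and 3.73 CPM, a log2 fold of 0.12 with an SE of 0.13 at this low level.

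In transport and removal, 1 gene of 6 had a positive and 5 a negative log2 fold, with a median of -0.053. Lrp1, the large endocytic receptor for apolipoprotein E, had 795, 766 and 786 CPM in wildtype mice and 698, 668 and 712 CPM in knockout mice. All knockout values lay below all wildtype values, and the spread within each genotype was smaller than the gap. Its level was 0.885 of wildtype (log2 fold -0.18, SE 0.04, adjusted p = 0.250), and the left-out libraries gave -0.20 to -0.15. With GC content and length in the fit its log2 fold was -0.04 (adjusted p = 0.859). Lrp1 was also the member with the smallest p.

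Apoe, the main apolipoprotein of the brain, had 1032, 988 and 937 CPM in wildtype mice and 973, 892 and 954 CPM in knockout mice. The genotypes overlapped, and the log2 fold was -0.07 (SE 0.05, adjusted p = 0.638). Its values stand beside 12 astrocyte markers, of which 10 had positive folds; their summed level was 5932.5 to 6605.2 CPM in wildtype mice and 6449.5 to 6963.9 CPM in knockout mice. The part of astrocyte number in the Apoe values was not tested.

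The export pumps, both targets of the liver X receptors, showed no separation. Abca1 had 87.9, 80.1 and 73.2 CPM against 75.0, 87.9 and 74.2 CPM (log2 fold -0.03, SE 0.08). Abcg1 had 62.5, 71.3 and 66.7 CPM against 68.8, 69.7 and 57.6 CPM (log2 fold -0.04, SE 0.08). Cyp46a1, the neuronal enzyme of cholesterol removal, had 128, 133 and 136 CPM in wildtype mice and 127, 129 and 116 CPM in knockout mice, giving -0.10 on the log2 scale (SE 0.05, adjusted p = 0.563). With GC content and length in the fit it was -0.02. The summed level of 10 neuron markers was 8178 to 8946.6 CPM in wildtype and 9067.2 to 9150.5 CPM in knockout mice.

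Stard4, a carrier that moves cholesterol between membranes, varied most from mouse to mouse. It had 30.1, 27.8 and 31.1 CPM in the wildtype mice and 26.5, 20.9 and 41.8 CPM in the knockout mice. The knockout mice held both the lowest and the highest value, which differ by a factor of 2.00, and the wildtype values all lay between them. The log2 fold was 0.02 (SE 0.21). Without knockout 3 it was -0.32 (adjusted p = 0.467). The order of the knockout mice in Stard4, knockout 3 highest and knockout 2 lowest, was also that of the mean level of the synthesis enzymes. The regulators, the transport genes (Stard4 among them), the other sterol genes and the nuclear receptor partners had the same order. Fatty acid synthesis genes and other lipoprotein genes did not. Among the wildtype mice, wildtype 2 was lowest in Stard4 and wildtype 1 in the synthesis level.

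**Figure D3:**
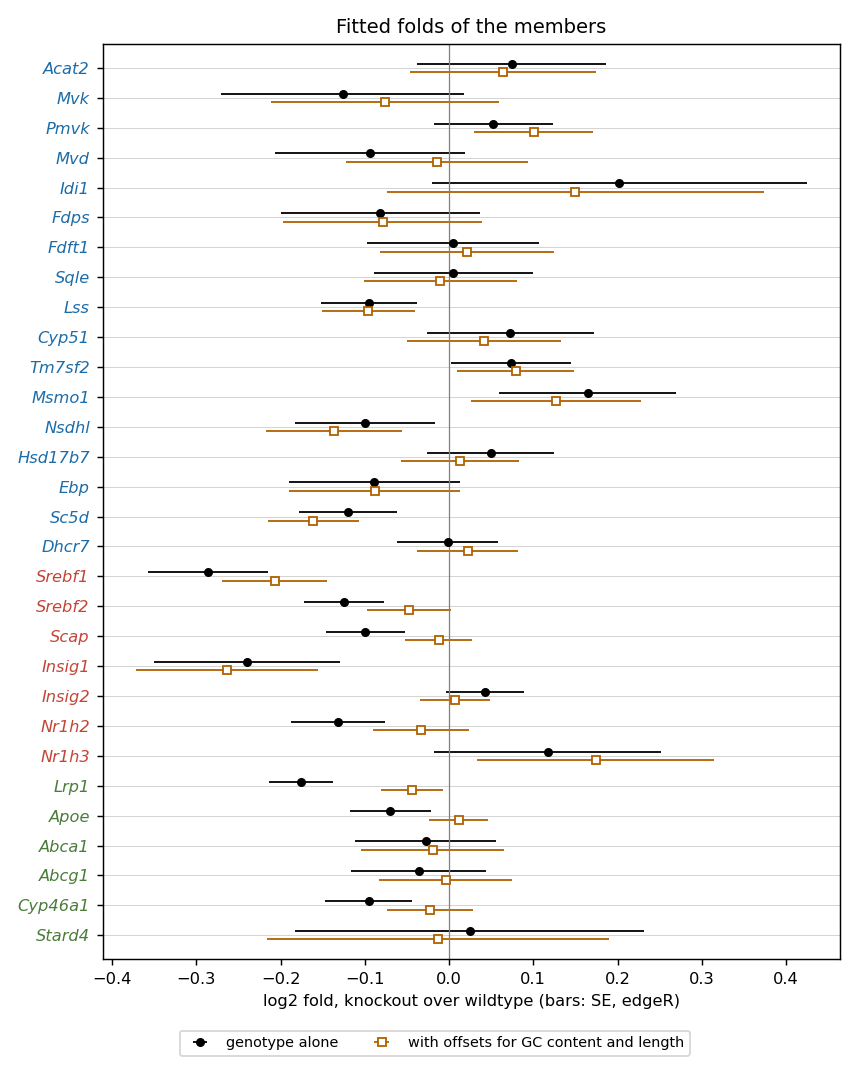
Log2 fold of knockout over wildtype for each tested member, with the standard error of the edgeR fit; filled circles are the fit on genotype alone and open squares the fit with GC and length offsets. With the offsets, Lrp1 moves from -0.18 to -0.04 and Srebf2 from -0.12 to -0.05. Srebf1 has -0.29 and -0.21, and Insig1 -0.24 and -0.26.

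Over all genes, the folds of these libraries followed base composition, and the members did not share 1 composition. When genes were put into 5 groups of about equal size by GC content of the longest transcript, the median log2 fold went from 0.06 in the group of lowest GC content (median 41.4%) through 0.03, 0.0060 and -0.03 to -0.08 in the highest (57.9%). Of the 7 regulators, 5 were in the highest group: Srebf1, Srebf2, Scap, Nr1h2 and Nr1h3. So were Lrp1, Apoe and Cyp46a1 of the 6 transport genes, but only Mvk, Pmvk and Mvd of the 17 synthesis enzymes.

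When the edgeR fit was given offsets for GC content and length, 605 genes were higher at an unadjusted p under 0.05 (3.68%) and 566 were lower (3.44%). Among the members 0 were higher and 3 were lower: Srebf1 (log2 fold -0.21, adjusted p = 0.544), Insig1 (-0.26, adjusted p = 0.657) and Sc5d (-0.16, adjusted p = 0.578). Srebf1 was thus on the same side of the unadjusted threshold in both fits. Lrp1 (-0.04, adjusted p = 0.859), Srebf2 (-0.05, adjusted p = 0.890) and Nr1h2 (-0.03, adjusted p = 0.940) were below that threshold only in the fit on genotype alone, and the fold of Apoe turned from -0.07 to 0.01. The median of the regulators went from -0.12 to -0.03 and that of the transport genes from -0.053 to -0.02. None of these members passed the adjusted threshold of edgeR in either fit.

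**Figure D4:**
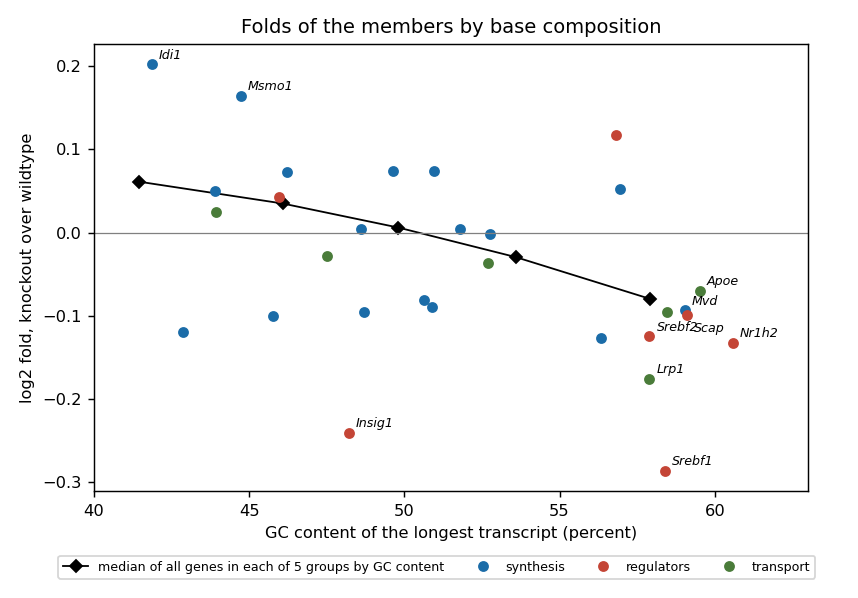
Log2 fold of knockout over wildtype against the GC content of the longest transcript, for the 30 tested members (colours by role) and as the median of all genes in each of 5 groups by GC content (black diamonds, from 0.06 to -0.08). Srebf1 and Insig1 lie far below the line of all genes; Apoe and Mvd lie close to it.

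Levels of different genes were compared per length, as CPM per kilobase of annotated exon in wildtype mice. Apoe stood at 461, followed by Lrp1 at 44.2, Cyp46a1 at 40.3 and Srebf2 at 28.1. The highest synthesis enzymes on this scale were Cyp51 at 16.8, Pmvk at 13.9 and Msmo1 at 13.2, and the lowest member was Idi1 at 0.56. The order within these groups depended on the length used: per kilobase of the longest transcript, Cyp46a1 (62.6) stood above Lrp1 (52.5), and Msmo1 (27.4) and Pmvk (19.98) above Cyp51 (18.8). Srebf2 (28.1) stood above Srebf1 (9.15), Insig2 (16.2) above Insig1 (11.7), and Nr1h2 (11.7) above Nr1h3 (1.32). In wildtype mice, Apoe, Lrp1, Cyp46a1 and Srebf2 stood above every synthesis enzyme with either length.

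**Figure D5:**
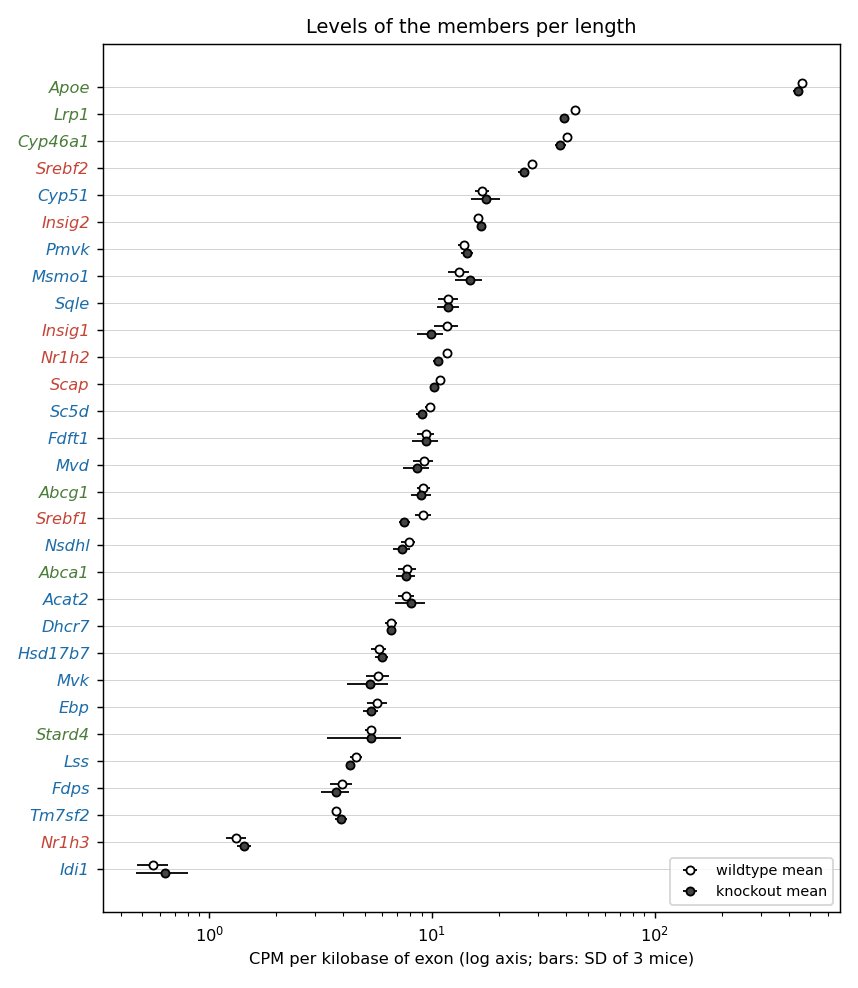
Mean level of each tested member per kilobase of annotated exon, on a log axis, with the SD of 3 mice; open circles are wildtype and filled circles knockout. Apoe at 461 CPM per kilobase stands apart from Lrp1 at 44.2 and from all other members, and the genotypes lie close together in every row.

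Other genes of the same processes gave few differences, and none passed the adjusted threshold of edgeR. Of 25 other sterol genes, 0 were higher and 0 lower at an unadjusted p under 0.05, with a median log2 fold of 0.02; the smallest p values were those of Mylip, which marks lipoprotein receptors for degradation (-0.14), Erlin2, a protein of the endoplasmic reticulum membrane that takes part in protein degradation (0.09), and Stard3, a lysosomal cholesterol carrier (-0.12).

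Among 17 fatty acid synthesis genes, 2 were higher and 1 was lower at an unadjusted p under 0.05, against 5.05% and 5.58% of all genes. The fatty acid elongase Elovl5 had 76.5, 76.3 and 78.1 CPM in wildtype mice and 85.0, 90.2 and 93.7 CPM in knockout mice. All knockout mice lay above all wildtype mice (log2 fold 0.22, SE 0.05, adjusted p = 0.250; with the GC and length offsets 0.18, adjusted p = 0.364), and DESeq2 called it, with an adjusted p of 0.0274. Elovl6, another elongase, had 74.7, 75.3 and 85.3 CPM against 85.0, 91.8 and 101 CPM (0.24, adjusted p = 0.339). With the GC and length offsets its log2 fold was 0.21 (adjusted p = 0.549). Fasn, the fatty acid synthase, was lower (-0.12, adjusted p = 0.409), with -0.02 under the offsets. Elovl5 and Elovl6 had positive folds in both fits, and the negative fold of Fasn was near 0 under the offsets. In the fit with offsets, 3 of the 17 genes were higher at an unadjusted edgeR p under 0.05, against 3.68% of all genes. In that fit 0 were lower, against 3.44%. In the fit on genotype alone, 10 of the 17 genes had positive and 7 negative folds. A shared difference of SREBP-1 targets was not tested.

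Of 25 other lipoprotein genes, 2 were higher and 1 was lower at an unadjusted p under 0.05, near the shares of all genes (5.05% and 5.58%). Lrp4, a receptor of the same family as Lrp1, had 56.0, 48.1 and 56.4 CPM in wildtype mice and 71.1, 67.1 and 58.5 CPM in knockout mice, without overlap (log2 fold 0.29, adjusted p = 0.330). Lrp5, a Wnt co-receptor of that family, had 12.9, 12.7 and 12.4 CPM against 10.4, 10.1 and 11.2 CPM (-0.26, adjusted p = 0.334). Lipoprotein lipase, Lpl, had a log2 fold of 0.39 (SE 0.17, adjusted p = 0.464), and its groups overlapped. Of 9 partners of nuclear receptors, 0 were higher and 2 were lower, against the same shares, among them the retinoid X receptor Rxrb (-0.15), which had -0.04 with the offsets. Med1, a coactivator, had a log2 fold of -0.15 (adjusted p = 0.479).

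Markers of the cell types that a dissected hippocampus can hold were present in all libraries, and none was at 0 in all of them. Oligodendrocytes, which use much cholesterol for myelin, are of interest beside the members. Of 12 markers of mature oligodendrocytes, among them Mbp, 2 had positive and 10 negative folds, with summed levels of 3525.5 to 4370.1 CPM in wildtype mice and 3403.9 to 3646.5 CPM in knockout mice. All 10 meningeal markers, led by Ptgds and Dcn, had positive folds, at 280.07 to 325.36 CPM against 390.66 to 481.71 CPM without overlap. The part of either cell type in the values of the members was not tested.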

How the data were processed

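Hippocampal RNA of 3 wildtype and 3 knockout mice was measured by RNA-seq. The authors deposited raw read counts per Ensembl gene identifier for each library; FastQC 0.10.1, STAR 2.3.0e, SAMtools, HTSeq, DESeq2 and mm9 are named per the submitters' processing notes. The annotation is not given in the sources used here, nor is the strand setting. Rows naming no gene held 38.0% to 40.3% of each library's counts and were left out. Symbols were matched for 32897 identifiers. The members and lists were chosen with earlier results of these data known.

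Counts were tested with edgeR 4.0.16 (quasi-likelihood, filterByExpr, TMM, Benjamini-Hochberg over 16432 genes, threshold 0.05, genotype alone), after the code was tested on simulated data. CPM used TMM library sizes. Lists are described by counts and medians, without a set test. Named genes are all members, the 3 smallest p of each other pathway list and the 2 most abundant markers of each marker list given. Some genes that this rule names are not reported here. Alternatives were DESeq2 1.42.0, limma 3.58.1 (voom), other factors and filters, a robust fit, a replicate block, a depth covariate, offsets for GC content and transcript length (splines with 5 degrees of freedom), and each library left out. Lengths, GC content and 3′ UTRs came from GENCODE on GRCm38, so no coordinate of the counts is used. The mice came from different litters, so p-values measure the spread between mice, and replicate numbers pair no mice.

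Exons of some members overlap exons of other counted genes: Cyp51 with Akap9, Fdft1 with Ctsb, Lss with 4930483K19Rik, Nr1h3 with Gm13783, Scap with 5830462I19Rik, Srebf1 with Rai1 and Tm7sf2 with Vps51. Tm7sf2 and Vps51 lie on the same strand, as do Nr1h3 and Gm13783, so a strand setting would not tell their reads apart there. For the other pairs, which lie on opposite strands, this depends on the strand setting, which is not known. Rows of ambiguous reads were among those left out.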

Additional observations from a re-analysis of the deposited data

How the results depend on the processing

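The number of genes called at an adjusted p under 0.05 depended on the tool and the filter: 0 with edgeR as used, 62 without a filter on low counts, 165 with DESeq2, 15 with the robust edgeR fit, and 18 at an adjusted p of 0.10. Leaving out each library gave 0 to 17. No member was called by edgeR in any of these fits; DESeq2 called Srebf1 and Lrp1, and Elovl5 among the other named genes, and the cause was not tested. Members lower at an unadjusted p under 0.05 numbered 3 to 5 in every setting, and members higher 0, except 1 without knockout 2 (range 0 to 1 over the left-out libraries). The lower members were not the same genes in every setting. They were Srebf1, Srebf2, Nr1h2 and Lrp1 in the main fit, and Srebf1, Insig1 and Sc5d with the GC and length offsets. The median of the regulators was -0.033 when the fit had GC and length offsets; the cause was not tested. The median level per kilobase was 9.17 with all exons and 11.1 with the longest transcript. Members with a seed match numbered 11, and 4 with 8-base matches.

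Some single folds near 0 changed sign, in 12 of 42 single genes, all with an absolute fold under 0.094. With the replicate number as a block, edgeR called 0 genes and 5 members were lower at an unadjusted p under 0.05; Fdft1 was at -0.0045, Sqle at -0.00035 and Stard4 at -0.042, deviations of same-numbered mice correlated at -0.10, -0.02 and -0.15, and no mouse correlated best with its own number. With the offsets, Sqle was at -0.010, Dhcr7 at 0.022, Apoe at 0.011 and Stard4 at -0.013. Dhcr7 was at 0.0053 with limma-voom and 0.0085 with the depth covariate. Over the left-out libraries the ranges that crossed 0 were -0.041 to 0.178 for Acat2, -0.164 to 0.010 for Mvd, -0.191 to 0.014 for Fdps, -0.106 to 0.097 for Fdft1, -0.097 to 0.086 for Sqle, -0.059 to 0.145 for Cyp51, -0.0081 to 0.101 for Hsd17b7, -0.049 to 0.040 for Dhcr7, -0.108 to 0.041 for Abca1, -0.083 to 0.049 for Abcg1 and -0.319 to 0.216 for Stard4. The least deeply read members were Idi1, with 74 reads in wildtype 1, and Nr1h3, with 129.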
